A study of Mus musculus with 56 samples.

Results

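SSEA1+ cells were compared with Thy1+ cells at day 3 of reprogramming, in the cultures that carried a control shRNA. This is the earliest day at which the study sorted reprogramming fibroblasts by these surface markers. The comparison takes the 4 libraries labelled D3_shLuci_SSEA1+ (n = 2) and D3_shLuci_Thy1+ (n = 2) from a sorted-cell table of 44 libraries, in a series of 56 samples. All 13451 gene rows of that table were compared, and its 819 rows of repeat types were not.

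The study followed mouse embryonic fibroblasts toward induced pluripotent stem cells while the level of the insulator protein CTCF was changed. The fibroblasts were OG2 cells, which carry a green fluorescent protein reporter of the Oct4 gene. They received a doxycycline-inducible lentivirus with Oct4, Sox2, Klf4 and Myc in 1 polycistronic construct, a retrovirus with the rtTA transactivator that doxycycline needs, and an shRNA. The sorted groups carry these viruses, and the cells grew in mouse embryonic stem cell medium with vitamin C and doxycycline. The control shRNA is labelled shLuci, and the other shRNA targets Ctcf. Thy1+ cells were sorted as positive for Thy1 and negative for SSEA1, and SSEA1+ cells as positive for SSEA1 and negative for Thy1. Double-negative cells, which carry neither marker, were sorted on the same day. Day 0 cells are labelled with the control shRNA, and the labels do not say whether they carried the other viruses. Which fibroblast subtypes or how many animals gave the cells is not stated, and nothing says that the 2 libraries of a group came from separate cultures. The p-values therefore measure the spread between libraries, which may be technical.

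Thy1 is a surface glycoprotein of fibroblasts that cells lose early on the way to pluripotency, and SSEA1 is a carbohydrate antigen that they gain later. Cells that keep Thy1 seldom go on to pluripotency, whereas SSEA1+ cells include those that do. In textbook accounts the early steps are the loss of mesenchymal genes and the gain of epithelial genes, and the pluripotency network of the cell's own genes comes last.

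Values are normalized read scores, which the authors scaled so that every library has a median of 500 over its rows. Library totals ran from 31777102 to 31798964, so they do not show sequencing depth. Whether gene length entered the scores is not stated. They are therefore compared here only between libraries, for the same gene or for the sum of the same genes. Such sums are weighted toward their highest-scoring members. Differences are on the log2(score + 1) scale, SSEA1+ minus Thy1+, which understates the change of low genes. Genes were called where the adjusted p was below 0.05, from limma fitted to all 44 libraries with Benjamini-Hochberg adjustment over all 13451 genes, and SE is its moderated standard error. Each group is a sorted population measured in bulk, so fewer cells of a type and less RNA per cell cannot be told apart.

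The gate was visible in the RNA, and is given here without a test because it chose the cells. Thy1 (GRCm38 chr9:44043384-44048579) scored 3504 and 4287 in the Thy1+ libraries, 248 and 252 in double-negative cells, and 216 and 202 in SSEA1+ libraries. Double-negative cells thus lay near SSEA1+ cells in Thy1, and slightly above them. SSEA1 is built by enzymes, not encoded by a gene, and of these Fut9, the fucosyltransferase that completes the antigen, scored 635 and 666 in Thy1+ cells, 1590 and 1302 in double-negative cells and 4898 and 6004 in SSEA1+ cells. Day 0 cells had Fut9 scores of 0 and 12. In Thy1+ and double-negative cells, which were sorted as negative for SSEA1, the transcript was thus already present. B3gnt5, which starts the lactosylceramide-based chains that can carry SSEA1, stood lower in SSEA1+ cells by -2.0, and the galactosyltransferase B4galt1 by -1.11. Fut4, the other fucosyltransferase linked to SSEA1, was not analysed here.

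Of the 13451 genes, 8636 were called (64.2%), 4763 of them higher in SSEA1+ cells (35.4%) and 3873 lower (28.8%). The median difference over all genes was 0.09. Larger differences lay more often on the lower side. At a log2 difference of at least 1, 1243 genes were higher (9.24%) and 1904 lower (14.2%), at 2 or more the shares were 2.04% and 6.90%, and at 3 or more the counts were 71 (0.528%) and 431 (3.20%). Because so many genes were called, the counts of each gene group below are to be read against these shares. A lack of overlap between the 2 SSEA1+ and the 2 Thy1+ libraries was common as well. It held for 4850 called genes whose higher group mean was at or above the median gene mean, leaving out predicted genes and pseudogenes, among others. Its share over all 13451 genes was not counted. A lack of overlap named below is therefore only a description of the libraries.

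**Figure D1:**
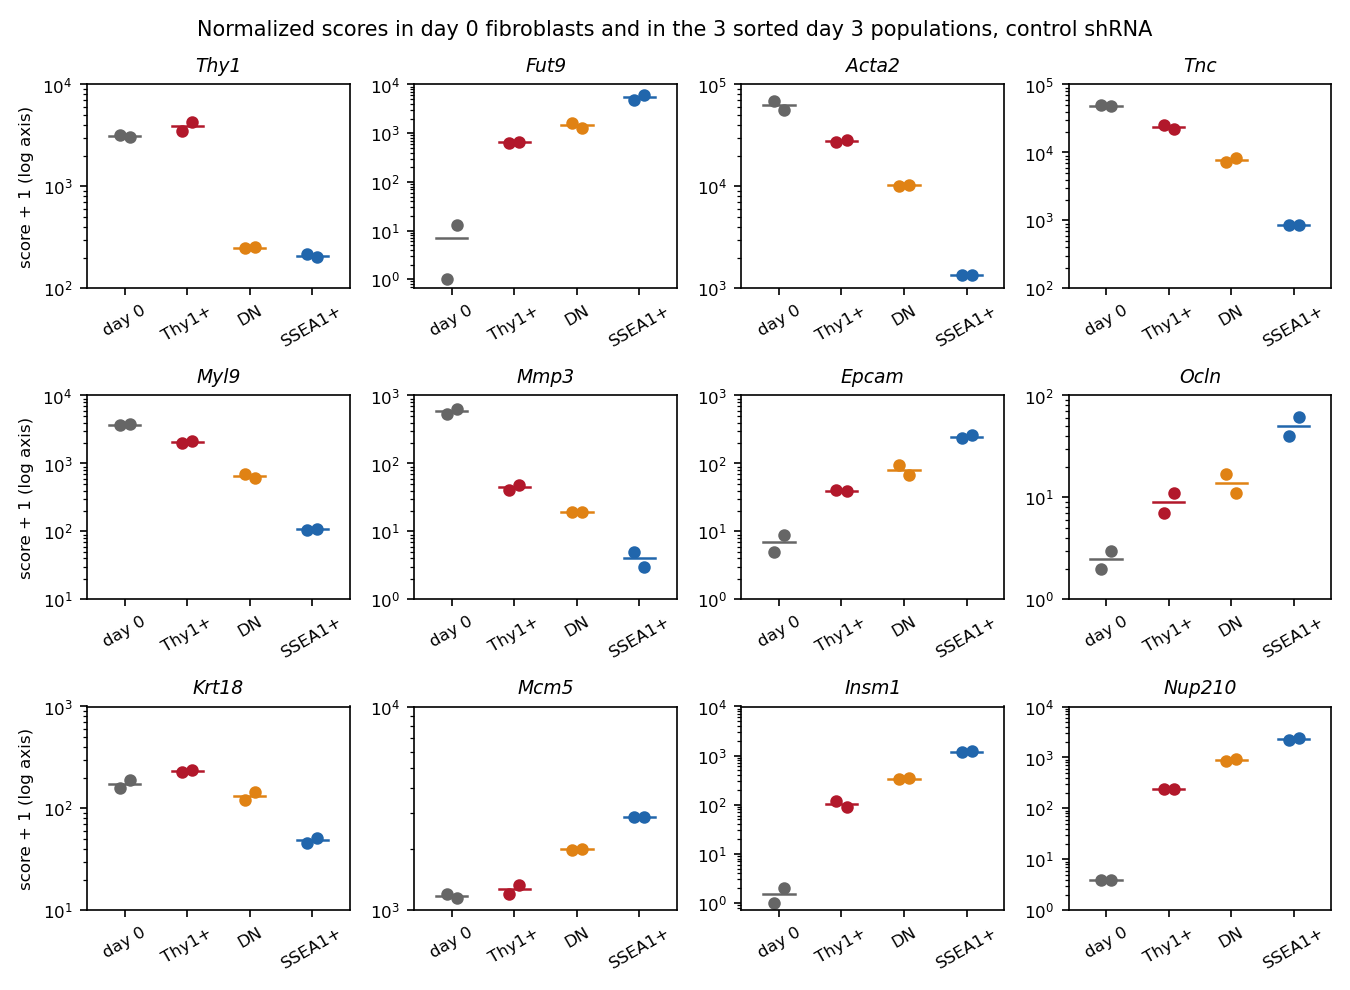
Scores of 12 genes in single libraries of day 0, Thy1+, double-negative and SSEA1+ cells with control shRNA. Each point is 1 library, the line marks the mean of 2, and the vertical axis is logarithmic in score + 1. Acta2, Tnc, Myl9 and Mmp3 step down from day 0 through Thy1+ and double-negative to SSEA1+ cells, Fut9, Insm1, Nup210 and Epcam step up, and Krt18 is lowest in SSEA1+ cells.

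Extracellular matrix genes were lower in SSEA1+ cells. All 28 listed matrix genes fell, with a median of -3.47, against 28.8% of all genes called lower. Tnc, which encodes the matrix glycoprotein tenascin C (GRCm38 chr4:63959785-64047015), scored 50528 and 47614 at day 0, 25544 and 21912 in Thy1+ cells, 7332 and 8324 in double-negative cells and 846 and 870 in SSEA1+ cells. The Thy1+ and SSEA1+ libraries lay far apart, and the 4 populations did not overlap. The difference was -4.78 (SE 0.15, adjusted p = 4.62e-20, limma). Lox, which crosslinks collagen and elastin, went from 21096 and 18413 in Thy1+ cells to 913 and 1052 in SSEA1+ cells, and the proteoglycan gene Bgn from 16643 and 16892 to 692 and 781. The fibrillar collagen gene Col1a2 differed by -4.14, Col3a1 by -4.03 and Col5a1 by -3.98. The smallest falls were those of Lum (-1.02), a collagen-binding proteoglycan, of fibrillin 1, Fbn1 (-1.25), and of the collagenase gene Mmp2 (-1.27). Eln, which encodes elastin, was listed at 0 in both SSEA1+ libraries and at 2 and 6 in Thy1+ cells.

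Thy1+ cells had themselves moved away from day 0, though less evenly. The comparisons of the SSEA1+ and of the Thy1+ cells with day 0 share the day 0 libraries, so their values only stand side by side. SSEA1+ cells were lower than day 0 for all 28 matrix genes, with a median of -3.54 (32.5% of all genes were lower and 39.7% higher). Thy1+ cells were lower for 16 and higher for 5, with a median of -0.46 (of all genes 42.3% were called, 20.1% lower and 22.3% higher). Among the 5 were Col6a3, at 1336 and 1472 at day 0 against 4110 and 3649 in Thy1+ cells, and Col3a1, at 3566 and 3468 against 7000 and 6662. In SSEA1+ cells Col6a3 scored 194 and 230 and Col3a1 386 and 451. Both collagen genes were therefore highest in Thy1+ cells and lowest in SSEA1+ cells.

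All 13 measured smooth muscle contractile genes fell, with a median of -3.02. Acta2, smooth muscle alpha-actin, scored 68432 and 56691 at day 0, 27078 and 28626 in Thy1+ cells, 10108 and 10324 in double-negative cells, and 1346 and 1348 in SSEA1+ cells (log2 difference -4.37, SE 0.14, adjusted p = 7.84e-20, limma). The 4 populations kept apart in that order. The actin-binding genes Cnn1 and Tagln differed by -4.44 and -4.20, and Acta1, the skeletal muscle actin, by -4.54. Srf, which encodes the serum response factor that binds CArG boxes in contractile genes, was the least changed member, at 1153 and 1142 against 929 and 1034 (-0.23, SE 0.09, adjusted p = 0.0343, limma). Myl9, the regulatory light chain of myosin, scored 2018 and 2164 in Thy1+ cells and 104 and 108 in SSEA1+ cells, a difference of -4.29. The 250 bases before its RefSeq start (build GRCm38.p6, chr2:156775214-156775463, plus strand) are printed because they hold a CArG box, in capitals, at position -161 from the start.

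Myl9: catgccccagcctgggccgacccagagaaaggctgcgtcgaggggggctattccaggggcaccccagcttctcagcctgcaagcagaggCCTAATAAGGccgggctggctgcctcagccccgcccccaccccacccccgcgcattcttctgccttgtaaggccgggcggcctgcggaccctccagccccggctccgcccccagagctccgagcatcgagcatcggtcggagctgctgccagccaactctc

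Signals that act on fibroblasts moved with these genes. Of 18 TGF-beta pathway genes 13 fell and 2 rose, with a median of -1.51. The ligand gene Tgfb1 scored 440 and 510 in Thy1+ cells and 48 and 56 in SSEA1+ cells (-3.17), and the receptor gene Tgfbr2 1458 and 1374 against 504 and 454 (-1.56). Neither gene overlapped between the groups. Inhba, the activin A subunit, went from 7976 and 7071 to 328 and 374 (-4.42). The intracellular mediators Smad3, Smad2 and Smad4 stood at -0.34, 0.23 and 0.57, and the call of Smad2 was lost without the second SSEA1+ or the second Thy1+ library.

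Of 12 BMP pathway genes 8 fell and 1, the ligand gene Bmp2, rose (1.03, from 26 and 24 to 50 and 54). The fallers included the secreted antagonists Grem1 (6188 and 5467 against 505 and 466, -3.58) and Nog (-2.58), and Id3 (-2.21) and Id1 (-1.16), which are direct targets of the pathway. The receptor genes Bmpr1a and Bmpr2 fell by 0.44 and 0.28.

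Of 16 Wnt pathway genes 8 fell and 3 rose. The fallers were Dkk2 (-4.11) and Dkk3 (-3.66) of the secreted Dickkopf family, the ligand genes Wnt5a (-2.82) and Wnt4 (-2.17) and receptor genes such as Fzd2 (426 and 456 against 28 and 31, -3.86). The transcription factor Lef1 rose from 43 and 68 to 280 and 319 (2.44, SE 0.26, adjusted p = 4.91e-09, limma), and Tcf7l1, a repressor of the same family, by 0.97. Axin2, a common readout of canonical Wnt activity, scored 8 and 8 in Thy1+ cells and 10 and 9 in SSEA1+ cells, which is near the floor of the table and was not called (adjusted p = 0.705, limma).

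FGF pathway genes moved in both directions, with 6 of 14 higher and 6 lower. Fibroblast ligands fell, namely Fgf10 (393 and 394 against 50 and 62, -2.80), Fgf7 (-2.55) and Fgf2 (-1.96). Fgf4, a ligand of pluripotent cells, rose from 192 and 168 to 344 and 388 (1.02, SE 0.24, adjusted p = 0.00059, limma), from 0 and 1 at day 0. Among target genes of the pathway, Dusp6 and Spry2 fell by 1.29 and 0.83 while Spry4 (0.71), Etv5 (0.80) and Etv4 (0.83) rose. Among receptor genes Fgfr3 rose from 52 and 46 to 180 and 165 (1.80) and Fgfr1 fell by 0.64.

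Among Hippo pathway genes, which are the coactivators and their targets, 8 of 10 fell and none rose in SSEA1+ cells. Ankrd1 went from 2614 and 2965 to 103 and 119 (-4.64), Ctgf from 8873 and 6815 to 814 and 842 (-3.23) and Cyr61 by -2.57. Yap1 scored 2605 and 2473 against 2384 and 2478 (-0.06, adjusted p = 0.567, limma), and its partner Tead1 5234 and 4012 against 3683 and 3872 (-0.28, adjusted p = 0.0954, limma). The paralogous coactivator gene Wwtr1 differed by -0.88.

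Of the 17 mesenchymal regulators and markers 16 fell, with a median of -1.79. Fn1, which encodes fibronectin, went from 54668 and 42340 to 2768 and 3050 (-4.05), and Cdh11, a mesenchymal cadherin, from 4492 and 4382 to 274 and 304 (-3.94). The repressors of epithelial genes differed by -2.90 for Snai1, -2.07 for Snai2, -1.99 for Zeb2 and -1.38 for Zeb1. Twist1 scored 500 and 544 against 295 and 276, a difference of -0.87.

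Fibroblast surface genes followed, with 11 of 12 lower and Nt5e higher (1.71), which encodes the ecto-nucleotidase CD73. Thy1 is counted among the 11 but was the gate. Pdgfrb, a receptor for platelet-derived growth factor, went from 678 and 660 to 50 and 64 (-3.54). Cd34, a sialomucin of progenitor cells, and Ly6a, which encodes Sca-1, had a pattern of their own. Cd34 scored 224 and 250 at day 0, 2056 and 2088 in Thy1+ cells, 848 and 972 in double-negative cells and 135 and 150 in SSEA1+ cells. Ly6a scored 81 and 92, 1150 and 1112, 619 and 486, and 228 and 162 in the same order. Both were thus highest in the Thy1+ population, above day 0 and above SSEA1+ cells.

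Integrin genes did not all go one way. Of 17, 14 fell and 2 rose, with a median of -1.49. Itga5, a subunit of the main fibronectin receptor, went from 6204 and 5777 to 580 and 623 (-3.31), and its partner Itgb1 from 44785 and 48932 to 12778 and 13910 (-1.81). Itga4, which also pairs with Itgb1, rose from 1485 and 1195 to 4841 and 5189 (1.91, SE 0.16, adjusted p = 7.14e-11, limma). Itgb4, an integrin of epithelial hemidesmosomes, scored 74 and 72 at day 0, 9962 and 8828 in Thy1+ cells and 5012 and 5698 in SSEA1+ cells. It was therefore far above day 0 in both populations and higher in Thy1+ cells (-0.81).

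Secreted and inflammatory genes fell in 19 of 21 cases, with a median of -3.36, and Lif, the cytokine that maintains mouse pluripotent cells, rose by 0.61. Il6 scored 1092 and 1326 in Thy1+ cells and 132 and 178 in SSEA1+ cells (-2.96), and the macrophage growth factor gene Csf1 6272 and 6448 against 523 and 562 (-3.55). Ptgs2, the inducible cyclooxygenase, went from 47614 and 43333 to 5280 and 5528 (-3.07), and its antisense transcript Ptgs2os2 by -4.41. The library kit is not stated to keep strand, so these 2 genes cannot be told apart. Igfbp3, a binding protein of insulin-like growth factors, scored 357 and 386 at day 0, 4364 and 4244 in Thy1+ cells and 690 and 688 in SSEA1+ cells (-2.64).

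Markers of other cell types only fell in most lists, while the trophoblast, neural, and cartilage and bone lists also held risers. None rose among 5 endothelial genes (3 fell), 5 pericyte genes (3 fell) and 2 endoderm genes (2 fell). The 1 measured skeletal muscle gene, Des, fell as well. The 11 measured macrophage genes summed to scores of 11702 and 14015 at day 0, 3142 and 3282 in Thy1+ cells and 1363 and 1293 in SSEA1+ cells, and 7 of them fell. The defining markers Tyrobp, Fcer1g and Aif1 were not analysed here. Csf1r, the receptor for Csf1, scored 110 and 142 against 148 and 147, and Cd68 131 and 124 against 116 and 138. The 5 adipocyte genes summed to 4669 and 4104 in Thy1+ cells and 2204 and 2134 in SSEA1+ cells, and all 5 fell. Of 8 trophoblast genes 4 fell and 2 rose, and the placental homeobox gene Esx1 went from 5 and 6 to 169 and 178 (4.75). The other riser, Elf5, went from 0 and 0 to 2 and 2, at the floor of the table. Of 6 cartilage and bone genes 4 fell and 2 rose, with Spp1, which encodes osteopontin, at -4.08. The alkaline phosphatase gene Alpl stood at 181 and 190 against 671 and 726 (1.91). Alpl scored 1 and 3 at day 0 and 2615 and 2754 in the GFP+ cells of day 12 with control shRNA. Its rise is therefore not read here as a sign of bone cells. The part of these other cell types in the differences above was not tested.

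Among immediate early genes the direction varied. Of 14, 10 fell and 2 rose, with a median of -0.61. The AP-1 subunit genes Fosb (-1.56), Junb (-0.93), Fos (-0.89) and Jun (-0.60) fell, whereas Egr1 rose from 784 and 715 to 1360 and 1414 (0.89) and Ier2 by 0.57. Fosl1, a further AP-1 subunit, stood at 2110 and 1992 at day 0, 742 and 856 in Thy1+ cells and 656 and 658 in SSEA1+ cells (-0.28). Mmp3, the stromelysin 1 gene, was chosen for display after its values were seen. It scored 540 and 636 at day 0, 40 and 48 in Thy1+ cells and 4 and 2 in SSEA1+ cells, or -3.71 from day 0 to Thy1+ cells and -3.53 from Thy1+ to SSEA1+ cells. The 250 bases before its RefSeq start (GRCm38.p6, chr9:7445572-7445821, plus strand) are shown because they hold 1 match of the AP-1 motif TGANTCA, in capitals, at position -46.

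Mmp3: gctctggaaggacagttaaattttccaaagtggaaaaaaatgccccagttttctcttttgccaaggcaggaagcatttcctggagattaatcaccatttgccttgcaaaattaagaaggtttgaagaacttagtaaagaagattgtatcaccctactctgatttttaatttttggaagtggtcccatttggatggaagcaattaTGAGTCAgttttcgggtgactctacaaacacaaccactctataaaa

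The epithelial genes rose and fell side by side. Of 29, 18 rose (35.4% of all genes did) and 7 fell (28.8%), and the median was 1.15. Many had low scores, and with only genes at 100 or more the counts were 8 and 4. Epcam, an epithelial adhesion molecule (GRCm38 chr17:87635979-87651129), scored 4 and 8 at day 0, 40 and 38 in Thy1+ cells, 94 and 66 in double-negative cells and 232 and 262 in SSEA1+ cells. Each population lay above the one before (log2 difference 2.63, SE 0.20, adjusted p = 5.76e-12, limma). Cdh1, the epithelial cadherin, scored 94 and 81 against 312 and 348 (1.90). The splicing regulator genes Esrp1 and Esrp2 rose by 2.71 and 1.12, the tight junction genes Ocln and Tjp3 by 2.49 and 2.61, and Grhl2, an epithelial transcription factor, reached scores of 10 and 8 from 0 and 0. Dsp, the desmosome protein desmoplakin, went from 4044 and 4029 to 10706 and 13336 (1.57).

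The 7 that fell were mostly keratins and claudins. Krt18, which pairs with Krt8 in the first epithelial filaments of the embryo (GRCm38 chr15:102028180-102032027), scored 156 and 187 at day 0, 226 and 240 in Thy1+ cells, 120 and 145 in double-negative cells and 45 and 50 in SSEA1+ cells. It was lowest in the SSEA1+ libraries, with no overlap (-2.27, SE 0.16, adjusted p = 2.14e-12, limma). The differences were -2.18 for Krt19, -1.78 for Krt7, -1.70 for the junction protein gene Jup, -1.57 for Cldn6, -1.10 for Cldn4 and -0.59 for Krt8. Krt8 scored 39 and 50 at day 0, 407 and 406 in Thy1+ cells and 270 and 270 in SSEA1+ cells, so it was above day 0 in both. Of 5 measured keratinocyte markers 3 fell and 2 were not called, and Krt5, Krt15, Trp63 and Lgals7 were not analysed here. Krt14 scored 60 and 46 in Thy1+ cells and 3 and 7 in SSEA1+ cells (-3.24), and Sfn, which encodes the epithelial 14-3-3 sigma, 1041 and 1172 against 244 and 330 (-1.96). Together the 5 summed to 204 and 191 at day 0, 1182 and 1294 in Thy1+ cells and 279 and 376 in SSEA1+ cells.

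The promoters of Epcam (chr17:87635729-87635978) and Krt18 (chr15:102027966-102028215) are printed because the genes moved in opposite directions while both sequences hold the E-box CAGGTG that Snail and Zeb factors bind. Each line gives the 250 bases before the RefSeq start, plus strand, GRCm38.p6, with matches on either strand in capitals, at positions -187 and -19 for Epcam and -214 for Krt18.

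Epcam: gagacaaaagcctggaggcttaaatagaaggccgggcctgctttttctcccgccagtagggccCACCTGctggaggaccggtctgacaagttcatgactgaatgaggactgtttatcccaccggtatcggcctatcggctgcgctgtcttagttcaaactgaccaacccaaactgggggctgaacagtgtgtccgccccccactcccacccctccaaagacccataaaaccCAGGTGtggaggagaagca
Krt18: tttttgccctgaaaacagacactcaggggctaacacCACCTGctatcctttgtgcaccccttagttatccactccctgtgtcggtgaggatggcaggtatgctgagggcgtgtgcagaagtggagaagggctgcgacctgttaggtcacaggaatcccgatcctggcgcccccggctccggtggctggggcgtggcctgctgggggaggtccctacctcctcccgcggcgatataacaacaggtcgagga

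**Figure D2:**
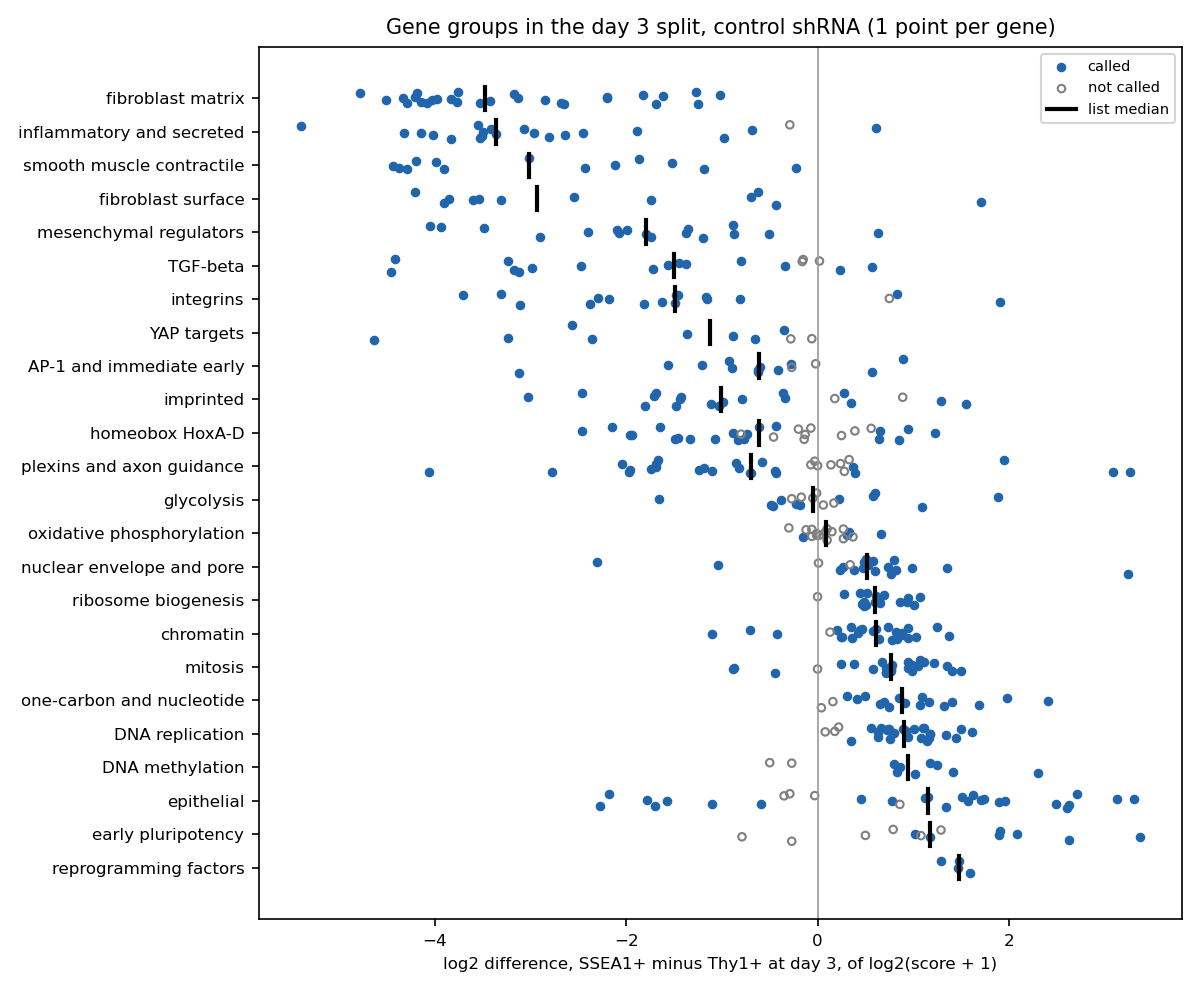
Log2 differences between SSEA1+ and Thy1+ cells at day 3 for the members of 24 gene lists. Each point is 1 gene, filled where called, the bar is the list's median, and the horizontal axis is on the log2(score + 1) scale. Matrix (median -3.47) and contractile genes (-3.02) lie to the left of 0, DNA replication (0.90) and DNA methylation genes (0.94) mostly to the right, and epithelial genes on both sides.

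Of 13 early pluripotency genes 7 rose and none fell, with a median of 1.17, and 6 were not called. The 7 include Epcam and Cdh1, already counted as epithelial genes, and Fgf4, already counted in the FGF pathway. They also include Gdf3, which went from 2 and 0 to 5 and 8, near the floor of the table. L1td1, an RNA-binding protein of pluripotent cells, scored 5 and 4 at day 0, 1102 and 1106 in Thy1+ cells and 2502 and 2452 in SSEA1+ cells, so Thy1+ cells also lay far above day 0. Sall4, a zinc finger factor, went from 4 and 3 in Thy1+ cells to 41 and 50 in SSEA1+ cells (3.37). Mybl2, a cell cycle transcription factor and so not particular to pluripotent cells, went from 511 and 490 to 1856 and 1913 (1.91). Tet1, Lin28a, Tdgf1, Dppa2, Dppa4 and Fbxo15 had scores of at most 30 in the 4 libraries and were not called.

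Of 18 naive and late genes 8 rose and 2 fell. Nr5a2, a nuclear receptor, went from 3 and 2 to 50 and 55 (3.95, SE 0.41, adjusted p = 3.89e-09, limma), Nr0b1 from 3 and 20 to 101 and 94 (3.42) and Nanog from 4 and 6 to 58 and 38 (3.02). None of the 3 overlapped between the groups. The late genes Esrrb, Dppa3, Dppa5a, Prdm14, Dnmt3l and Tfap2c scored no more than 5 in any of the 4 libraries. Klf2 and Tbx3, which support the naive state but are also expressed by fibroblasts, fell by 1.80 and 0.44.

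The delivered factors were higher in SSEA1+ cells, Klf4 by 1.59, Sox2 by 1.48, Pou5f1 by 1.47 and Myc by 1.29. Reads of the introduced and the endogenous genes cannot be told apart here. Pou5f1 scored 273 and 256 at day 0, 5548 and 4544 in Thy1+ cells, 7976 and 8858 in double-negative cells and 13126 and 14652 in SSEA1+ cells. The factor scores thus rose in steps through the same order of populations as the genes above, and their part in the other differences was not tested.

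Genes of DNA replication were called higher in 25 of 28 cases and lower in none, with a median of 0.90. The origin licensing gene Cdt1 went from 538 and 478 to 1483 and 1388 (1.5, SE 0.08, adjusted p = 3.15e-15, limma), Mcm10, an initiation factor, from 518 and 530 to 1496 and 1718 (1.61) and the polymerase delta subunit gene Pold1 by 1.34. Rrm2, Gins2 and Orc6 were not called. Thy1+ cells did not share the direction, with a median against day 0 of -0.11, 3 higher and 7 lower, where SSEA1+ cells had 0.77, 23 higher and 2 lower. Mcm5, a subunit of the replicative helicase, was chosen for display after its values were seen. It scored 1196 and 1143 at day 0, 1203 and 1334 in Thy1+ cells and 2884 and 2876 in SSEA1+ cells (1.18), so the Thy1+ libraries lay near day 0. Its promoter (GRCm38.p6, chr8:75109259-75109508, plus strand) is shown for an E2F motif, TTTCGCGC or TTTGGCGC, whose matches on opposite strands at positions -153 and -149 overlap, in capitals.

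Mcm5: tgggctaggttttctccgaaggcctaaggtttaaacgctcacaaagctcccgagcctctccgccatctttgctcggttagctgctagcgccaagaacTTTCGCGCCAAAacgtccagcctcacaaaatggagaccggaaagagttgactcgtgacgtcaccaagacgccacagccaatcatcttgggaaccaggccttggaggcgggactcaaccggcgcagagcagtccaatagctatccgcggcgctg

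Mitosis genes rose in 21 of 25 cases. Aurkb, a kinase of chromosome segregation, went from 363 and 324 to 960 and 978 (1.5) and the checkpoint kinase gene Bub1b from 843 and 1012 to 2438 and 2426 (1.40). The D-type cyclins were the 3 that fell. Ccnd1 scored 4685 and 5302 at day 0, 11676 and 10988 in Thy1+ cells and 6161 and 6208 in SSEA1+ cells (-0.87), and Ccnd2 differed by -0.88 and Ccnd3 by -0.45. Ccnd1 and Ccnd2 were highest in Thy1+ cells. Of 16 genes of the p53 response and CDK inhibitors 6 rose and 4 fell, with a median of 0.01. Among CDK inhibitors Cdkn2b fell from 678 and 644 to 160 and 139 (-2.14), Cdkn1c by 1.69 and Cdkn1b by 0.89, while Cdkn1a scored 5911 and 6247 against 5606 and 5921 (-0.08, adjusted p = 0.386, limma) and Cdkn2a 1052 and 1066 against 1013 and 850 (-0.19, adjusted p = 0.419, limma). Among p53 targets Bbc3 (1.2), Sesn1 (0.86), Sesn2 (0.77) and Bax (0.69) rose and Mdm2 (-0.62) fell. All but 1 of 12 DNA repair genes rose, among them Bard1 (1.54), Brca2 (1.52) and Chek1 (1.44), and Rad54l was not called.

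Biosynthesis genes rose by smaller amounts. In ribosome biogenesis 17 of 18 rose, with a median of 0.60, led by Rrp9 (1.07) and Fbl (1.01), which act in ribosomal RNA processing and methylation. The remaining one, Npm1, had the same score of 933110 in all 4 libraries, as Ccng1 did with 557883, so their difference of 0 cannot be read as no change. In one-carbon and nucleotide metabolism 16 of 18 rose, with a median of 0.88. Tdh, the threonine dehydrogenase used by mouse embryonic stem cells, went from 32 and 18 to 126 and 139 (2.41), Gldc, of the glycine cleavage system, from 68 and 108 to 314 and 372 (1.98) and Shmt1 from 419 and 478 to 1466 and 1418 (1.69).

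Energy metabolism differed by gene rather than as a group. Of 17 glycolysis genes 5 rose and 6 fell, with a median of -0.05. Hk1 went from 2146 and 2273 to 640 and 764 (-1.66) while Hk2, the other main hexokinase, went from 1686 and 1702 to 2464 and 2614 (0.58). Pdk1, a kinase that inhibits pyruvate dehydrogenase, rose from 222 and 261 to 816 and 976 (1.89). Of 18 nuclear genes of oxidative phosphorylation 3 rose, 1 fell and 14 were not called. Cholesterol synthesis genes fell in 7 of 13 cases and rose in 2. Stress genes fell in 9 of 14 cases and rose in 3. Targets of the oxidant-sensing factor Nrf2 went both ways. Nqo1 (900 and 928 against 156 and 142, -2.61), Hmox1 (-1.93), Srxn1 (-1.90) and Txnrd1 (-0.23) fell, and Gclm rose from 1201 and 1135 to 1780 and 1935 (0.67).

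DNA methylation genes rose in 8 of 10 cases and fell in none, with a median of 0.94. Dnmt3b, a de novo DNA methyltransferase, went from 43 and 35 to 188 and 202 (2.30), Tet2 from 592 and 360 to 1214 and 1260 (1.42) and Uhrf1, which recruits the maintenance methyltransferase, from 1200 and 1262 to 2865 and 3005 (1.25). Other chromatin genes rose in 23 of 27 cases and fell in 3, with a median of 0.61. Jarid2, a Polycomb partner, rose by 1.37, and Ezh2, the Polycomb methyltransferase, by 0.94. Smarcd3 and Smarcc2, subunits of the SWI/SNF remodelling complex, fell by 1.10 and 0.42, and Smarcc1, the other core subunit of that kind and the one of embryonic stem cells, rose from 3752 and 3547 to 5337 and 5606 (0.58). Of 16 genes linked to CTCF, cohesin and the ISWI remodellers 11 rose and 1 fell. Ctcf scored 909 and 827 against 1362 and 1433 (0.69) and the cohesin subunit Rad21 2080 and 2062 against 3146 and 3160 (0.61). At the nuclear envelope Lmna, the A-type lamin of differentiated cells, fell from 15206 and 15206 to 7305 and 7487 (-1.04) and Lmnb1 rose from 1180 and 1289 to 3004 and 3308 (1.35).

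Genes of position and of imprinting also differed. Of 29 Hox genes 15 fell and 5 rose. The fallers with the largest differences lay in the HoxB and HoxC clusters, Hoxc8 (486 and 460 against 90 and 80, -2.46) and Hoxb9 (-2.15), and the risers in HoxD and HoxA, Hoxd3 (1.23), Hoxd13 (338 and 315 against 632 and 633, 0.95) and Hoxa9 (0.85). Of 20 imprinted genes 14 fell and 4 rose. The neighbours Igf2, a fetal growth factor, and H19, a noncoding RNA, fell from 2552 and 2352 to 302 and 295 (-3.03) and from 2806 and 3308 to 545 and 560 (-2.46). Mest, a hydrolase, rose from 704 and 700 to 1962 and 2148 (1.55). H19 stood at 2993 and 3156 at day 0, so Thy1+ cells lay near day 0 and SSEA1+ cells below.

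Of 8 listed neural genes 3 rose and 3 fell. Insm1, a neuroendocrine zinc finger factor (GRCm38 chr2:146221921-146225020), scored 0 and 1 at day 0, 119 and 87 in Thy1+ cells, 326 and 354 in double-negative cells and 1159 and 1214 in SSEA1+ cells. Chl1, a neural cell adhesion molecule, went from 254 and 216 to 1374 and 1407 (2.56), and Homer2, a postsynaptic scaffold, from 186 and 180 to 908 and 966 (2.35), neither of them a member of that list. Nes, a filament of neural progenitors that fibroblasts also express, went from 3846 and 3668 to 546 and 565 (-2.76). Neurog2, a neurogenic factor, scored 0 and 0 at day 0, 162 and 178 in Thy1+ cells and 161 and 194 in SSEA1+ cells, with no difference called between them (adjusted p = 0.915, limma). Plxnc1, a semaphorin receptor, rose from 54 and 72 to 524 and 550 (3.09), whereas Sema3a, a secreted guidance cue, fell from 4672 and 5100 to 230 and 370 (-4.06) and its receptor gene Nrp1 by 2.78.

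Other large rises were those of Nup210 (GRCm38 chr6:91013068-91116829), a membrane protein of the nuclear pore, from 244 and 240 to 2196 and 2398 (3.24, SE 0.18, adjusted p = 2.04e-14, limma), of Epop, a Polycomb partner, from 900 and 902 to 4578 and 5318 (2.45), and of Greb1, from 152 and 120 to 741 and 674 (2.38). Anpep, an aminopeptidase known as CD13, went from 624 and 528 to 3547 and 3752 (2.67). On the other side Prl2c2 and Prl2c3, growth factor genes of the prolactin family, differed by -4.85 and -4.44. They are near-identical copies between which reads may have been split, so their separate values are uncertain. Prl2c2 scored 2105 and 2114 at day 0, 13209 and 11640 in Thy1+ cells and 542 and 338 in SSEA1+ cells. The leukocyte gene Cd53 and the neuronal membrane gene Gpm6a had larger differences still, but each was listed at 0 in 1 SSEA1+ library, and their calls were lost when only the compared libraries were fitted. Without the second SSEA1+ library Cd53 differed by -3.19 and was not called.

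Double-negative cells, whose scores do not enter the difference itself, lay between the gates for most called genes. Their mean score stood between those of Thy1+ and SSEA1+ cells for 9985 of 13451 genes (74.2%) and for 2964 of the 3147 called with a difference of at least 1 (94.2%). Ties were counted as between. Genes chosen for a large difference leave a wider range to fall in, so the higher share is partly set by that choice. Of the 1243 higher genes 1202 did so (96.7%), at a median position of 0.45 of the way from Thy1+ to SSEA1+ on the log2 scale. Of the 1904 lower genes 1762 did so (92.5%), at 0.31. On the log2 scale lost genes thus stood closer to the Thy1+ level than gained genes did, a description without a test. A level midway between the scores lies nearer the higher level on that scale. The order therefore need not hold for the scores themselves. Thy1 was an exception in that its double-negative value was near that of SSEA1+ cells, and H19, at 3304 and 3296, was near Thy1+ cells.

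Ctcf shRNA cells were sorted the same way in 4 further libraries, which share none with the control comparison. There 8607 genes were called (64.0%). Of these, 7593 were called in the same direction as with control shRNA, which is 87.9% of the control calls and 88.2% of the Ctcf shRNA calls, and 9 were called in opposite directions. Across genes the differences had a Pearson correlation of 0.88, which is a description, since genes are not independent. Of the genes with a difference of at least 1, 92.9% of the higher and 94.7% of the lower were called on the same side. Tnc differed by -4.72, Acta2 by -4.11, Nup210 by 3.54 and Anpep by 2.84.

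The difference between the shRNAs was itself called for 27 genes (0.201%), 22 of them with a higher value under Ctcf shRNA (0.164%) and 5 with a lower one (0.0372%). Larger changes were called in genes with lower scores, such as Nell2 (1.95, with SSEA1+ scores of 8 and 9 under control shRNA) and Hopx (-3.11, with no score above 20). Col6a2, a collagen VI chain, scored 1274 and 1315 in Thy1+ cells and 279 and 284 in SSEA1+ cells with control shRNA, a difference of -2.20. With Ctcf shRNA it scored 604 and 582 against 234 and 238, or -1.33, and the change in the difference was 0.87 (SE 0.12, adjusted p = 0.000957, limma). Ltbp1, which holds latent TGF-beta in the matrix, changed from -2.47 to -1.79, and Npnt, the integrin ligand nephronectin, from 1.16 to 1.84. Only 1 gene was called when the fit used the 8 compared libraries alone, and the count ran from 10 to 50 when single libraries were left out. It was 10 without the first control Thy1+ library, and 15 and 50 without the first and the second control SSEA1+ library. Ltbp1 and Col6a2 kept their call without any single library, but lost it, as Npnt did, with the 8 compared libraries alone.

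**Figure D3:**
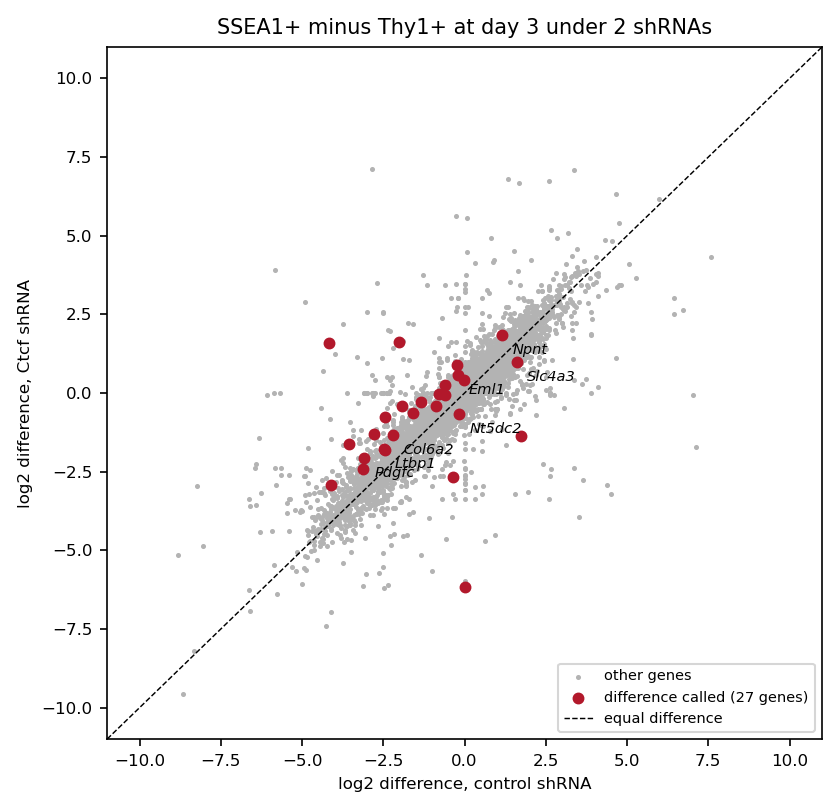
The day 3 difference between SSEA1+ and Thy1+ cells with control shRNA (horizontal) and with Ctcf shRNA (vertical), both on the log2(score + 1) scale, with 1 point per gene. Red points are the 27 genes whose difference changed with the shRNA, and 7 of them are labelled. The cloud follows the diagonal, with a correlation of 0.88 across genes.

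On later days the same gates were sorted again, with no library shared between days. The day 6 sort gave 10246 called genes (76.2%), with 42.4% higher and 33.8% lower. The day 9 sort gave 9252 (68.8%). Of the day 3 calls 85.9% were called in the same direction at day 6 and 76.1% at day 9, which is 72.4% and 71.1% of the later calls, and 281 and 464 genes were called in opposite directions. Genes at least 1 lower at day 3 had median differences of -1.97, -2.65 and -1.58 on days 3, 6 and 9, and genes at least 1 higher had 1.41, 1.88 and 1.27. Because these genes were chosen on their day 3 values, the day 3 medians are not comparable without bias to the later ones.

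The size of the difference changed for 5385 genes between days 3 and 6 (40.0%) and for 3852 between days 3 and 9 (28.6%). Of the 29 epithelial genes 24 had a higher difference at day 6 than at day 3 and none a lower one (21.0% of all genes had a higher one). Krt18 went from -2.27 through -0.55 to 2.74. At day 9 it scored 814 and 723 in Thy1+ cells and 5120 and 5160 in SSEA1+ cells, the reverse of day 3. Cldn4 went from -1.10 to 2.51 and 3.00, with scores of 735 and 765 in day 6 SSEA1+ cells. The growth factor binding gene Igfbp2 scored 117 and 110 against 18 and 40 at day 3, and 275 and 326 against 1960 and 1970 at day 9, which is a change from -2.04 to 2.71. All 3 of these genes changed side.

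Anpep changed in the other direction. Its SSEA1+ scores on day 3 were 3547 and 3752, those of day 6 were 599 and 598, and those of day 9 were 241 and 287. Its Thy1+ scores in the same order were 624 and 528, 642 and 562, and 676 and 696. The aminopeptidase transcript was thus high in the SSEA1+ cells of day 3 alone among these 6 groups, and the difference went from 2.67 to -0.01 and -1.38. Clu, the chaperone clusterin, went from 528 and 649 against 1273 and 1359 at day 3 to 1176 and 1394 against 330 and 444 at day 9 (1.17 to -1.74). Matrix genes had a larger loss at day 6, where 24 of 28 had a lower difference than at day 3 (2560 of all genes did), and a smaller one at day 9, where 17 of 28 had a higher one (16.2% of all genes did) and 5 a lower one (12.4%). Il1rn, the antagonist of interleukin 1, scored 276 and 299 against 160 and 150 at day 3 (-0.89) and 1174 and 1066 against 32 and 26 at day 6. Replication genes had higher differences at day 6 in 26 of 28 cases (21.0% of all genes did) and at day 9 in 6 (16.2%). The day 9 count is near the share of all genes.

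**Figure D4:**
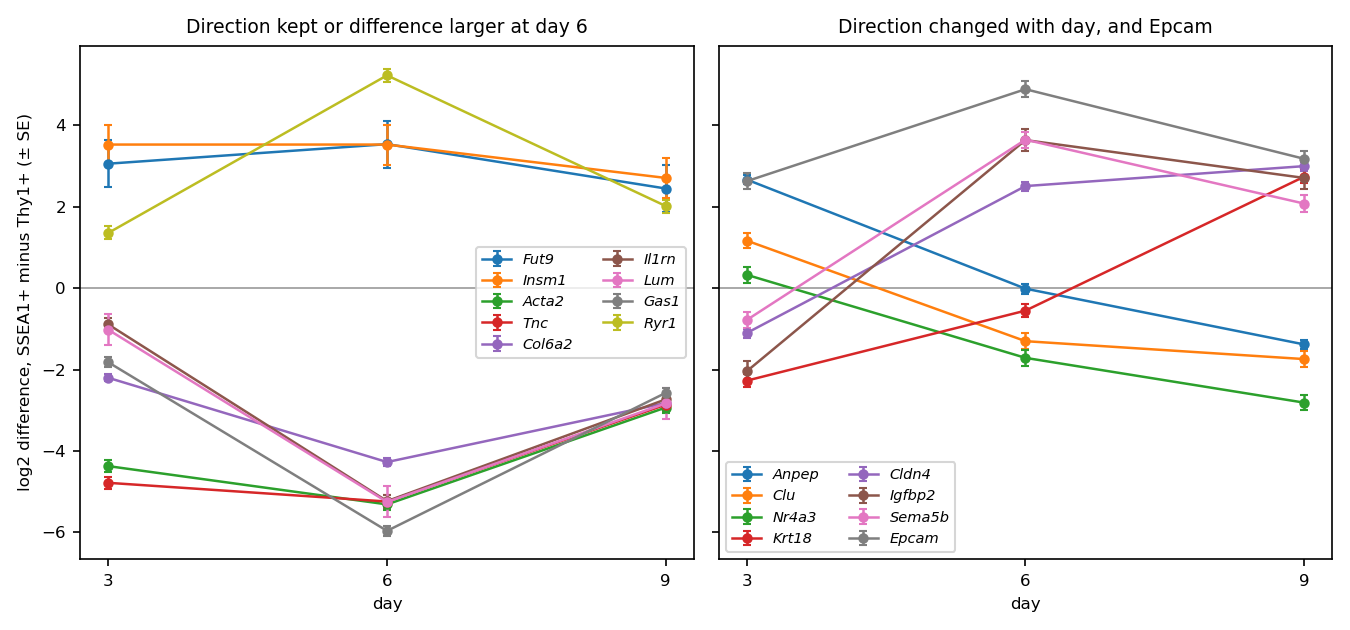
The log2 difference between SSEA1+ and Thy1+ cells with control shRNA at days 3, 6 and 9, with bars of 1 SE. Left, genes that keep their side. Right, genes that change their side or lose the difference, and Epcam, which keeps its side (2.63, 4.89 and 3.18). Krt18 and Igfbp2 go from -2.27 and -2.04 at day 3 to 2.74 and 2.71 at day 9, and Anpep from 2.67 to -1.38.

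A separate table holds read counts of 1 fibroblast and 1 iPSC library, without replicates, and gives the end points of the path as a description. Of the genes at least 1 higher in day 3 SSEA1+ cells, 833 of 1023 with data were higher in the iPSC library (81.4%), with a median log2 ratio of 1.64. Of those at least 1 lower, 298 of 1679 were higher there (17.7%), with a median of -1.85. Over all 11871 matched genes 49.4% were higher.

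Promoter letters were compared without a test. RefSeq promoters, 250 bases before to 50 bases after the start, were matched for 10261 of the genes, and every motif was searched on both strands. CAGGTG stood in 24.0% of 904 promoters of genes at least 1 higher, in 16.2% of 1384 of those at least 1 lower and in 17.0% of all matched. It was present in 15 of the 19 epithelial genes with a promoter, among them both risers such as Epcam, Ocln and Dsp and fallers such as Krt18, Krt7 and Cldn4. TGANTCA stood in 9.97% of the lower and 3.76% of the higher genes against 5.14% of all, and in 6 of 16 inflammatory genes, including Il6, Mmp3 and Mmp13. The E2F motif stood in 2.10% of the higher and 0.578% of the lower genes against 1.56%, and the CArG box in 1.22% and 2.17% against 1.34%. The TEAD motif GGAATG stood in 11.5% and 15.1% against 11.9%. Over all 32851 promoters of the reference table, the shares were 20.2% for CAGGTG, 7.81% for TGANTCA, 0.813% for the E2F motif, 1.63% for the CArG box and 14.7% for GGAATG. The CpG-rich word CGCG stood in 54.4% of the lower and 69.8% of the higher genes against 70.4% of all. A match describes letters in this window and no binding.

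**Figure D5:**
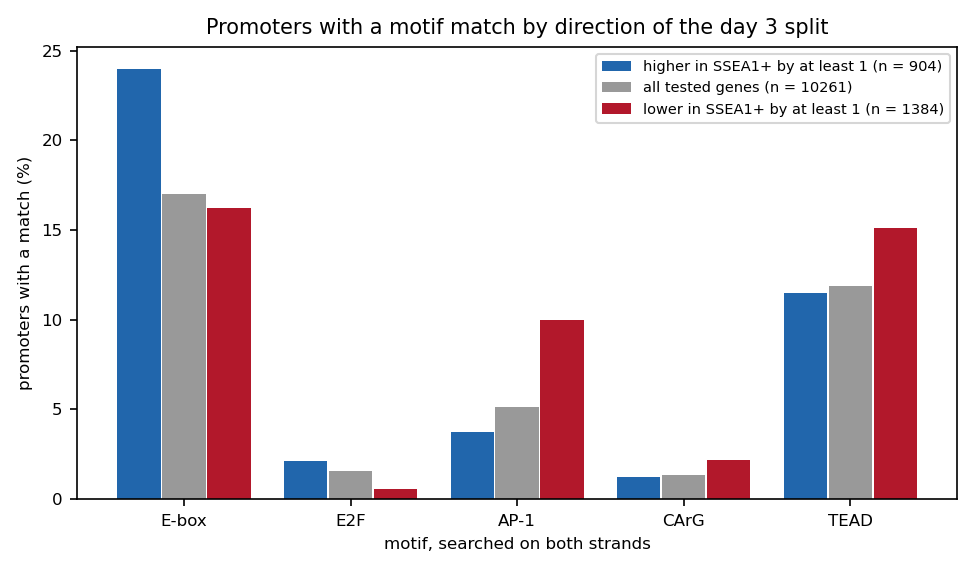
Percent of RefSeq promoters that hold each of 5 motifs, among genes at least 1 higher in SSEA1+ cells (904), all matched genes (10261) and genes at least 1 lower (1384). Bars start at 0. The E-box bar is tallest for higher genes at 24.0%, and the AP-1 bar for lower genes at 9.97%.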

How the data were processed

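Libraries were made from TRIzol total RNA with the NEBNext Ultra kit, per the labels' protocols. Per the submitters' processing notes, FastQC, Trim Galore and RSEM were used with mm10 (GRCm38) for the sorted cells and mm9 for the fibroblast and iPSC libraries; versions are not given in the sources used here. The sorted-cell values are a score that the authors deposited as whole numbers normalized to equal medians, by a method not named, so they were not treated as counts. The authors deposited raw read counts for the fibroblast and iPSC libraries (16593659 and 9912018 in total), compared here as CPM with a pseudocount of 1 for genes with at least 10 counts. Sequencing depth of the sorted libraries is unknown.

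log2(score + 1) was fitted with limma 3.58.1 (R 4.3.3) with a mean-variance trend over 44 libraries in 22 groups, without a replicate term. Genes needed a score of 10 in 2 libraries, which all 13451 passed. Tables used Python 3.11.15, pandas 2.3.3 and numpy 2.4.6, figures matplotlib 3.10.9, and the fit was tested on simulated data. Members and lists were chosen with earlier results of these data known. Named genes are the gate and factor genes, the 20 largest called differences in each direction with a group mean at or above the median gene mean and no overlap, the largest called members of each of 46 lists, and, by the same filters on level and overlap and leaving out predicted genes, up to 5 largest called interactions in each direction. Other list members are described as list members. Alternatives were other pseudocounts, filters, scalings, sample sets, a replicate term, and each library left out. Some genes are not reported here.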

Additional observations from a re-analysis of the deposited data

Results flagged for a closer look

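The difference between SSEA1+ and Thy1+ cells itself differed between conditions, by limma's interaction test, for the following genes, chosen among those with a group mean at or above the median gene mean and no overlap between groups. Between Ctcf shRNA and control shRNA at day 3 the change was -0.63 for Slc4a3, -0.50 for Nt5dc2, 0.67 for Npnt, 0.68 for Ltbp1, 0.76 for Eml1, 0.87 for Col6a2 and 1.01 for Pdgfc. These are 7 of the 27 called genes, and larger changes in genes with lower scores, such as 5.74 for Hpgd, 3.63 for Tmem100 and -3.11 for Hopx, are outside that choice. With only the 8 compared libraries none of these 7 kept its call, with adjusted p between 0.18 and 0.682 (limma).

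Between day 6 and day 3 the change was -4.34 for Il1rn, -4.23 for Lum, -4.15 for Gas1, -4.07 for Gda and -4.05 for Enpp1. It was 3.61 for Cldn4, 3.87 for Ryr1, 4.26 for Slco4c1, 4.43 for Sema5b and 4.75 for Lad1. Ryr1, the calcium release channel of skeletal muscle, scored 33 and 26 in Thy1+ and 77 and 77 in SSEA1+ cells at day 3, and 30 and 28 against 1191 and 1066 at day 6.

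Between day 9 and day 3 the change was -5.23 for Acan, -4.05 for Anpep, -3.15 for Nr4a3, -2.96 for Sned1 and -2.91 for Clu. It was 4.75 for Igfbp2, 5.01 for Krt18, 5.19 for Gpm6a, 6.65 for Serpinb9e and 7.12 for Pof1b. The last 3 rest on day 3 SSEA1+ libraries listed at 0, with 0 and 128 for Gpm6a, 0 and 0 for Serpinb9e and 0 and 36 for Pof1b. Without the first day 3 SSEA1+ library the value of Gpm6a was 1.68.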

How the results depend on the processing

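For genes named by rule, 3503 of 3609 values under the alternatives kept direction and side of the threshold, 106 lost their call and 0 reversed; for list counts 1059 of 1104 stayed within 1.5 times. The day 3 count of called genes ran from 7557 to 8823, and from 7670 to 7712 with single libraries left out. Requiring a difference of at least 1 left 3147 genes, by construction, for which 94.2% of double-negative means lay between the gates. The count for the change with Ctcf shRNA was 1 with the compared libraries only and 10 to 50 with single libraries left out, and the cause was not tested. With 150 bases before the start, a shorter window by construction, the shares among genes at least 1 higher were 11.4% for CAGGTG (8.39% of all matched) and 1.22% for the E2F motif (0.809%), and among genes at least 1 lower 6.29% for TGANTCA (2.72%) and 1.23% for the CArG box (0.76%). Same-numbered SSEA1+ and Thy1+ libraries did not deviate together (r = -0.0445); a replicate block gave 8823 calls for day 3 and 37 for the change with Ctcf shRNA. Quantile normalization moved the median of all genes from 0.09 to 0.14. Depth is unknown, and 95 genes had identical scores in the 4 libraries.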
